A study of Bos taurus with 18 samples.

Results

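Methylation was measured at 130 cytosines of CpG sites on chromosome 27 of the bovine genome (bosTau8, chr27:35829825-35854567) for which SFRP1 is the gene with the nearest start site, out of 31500 CpGs in the whole data set. Every measured cytosine between those bounds is a member, whatever its value. The bounds are the outermost cytosines that the study's own lists of differentially methylated cytosines assign to SFRP1, so the ends of the span were set by calls on these libraries. The span covered 24.7 kb, and the tested CpG before it lay 6594.5 kb away. Past the last member the same run of CpGs went on for 10 more cytosines, which had a mean level of 80.8% and gave 0 calls in the 10 contrasts described below. After that run, the next tested CpG lay 1592 kb away. The start site of SFRP1 is outside the span, and whether the 130 cytosines fall in an exon, an intron or between genes was not analysed here, because no annotation of this build was used. The study set no limit on the distance to the nearest start site. The name SFRP1 cytosines therefore stands only for that assignment.

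SFRP1 encodes a secreted frizzled-related protein. Wnt ligands signal by binding frizzled receptors on the cell surface, and SFRP1 carries a cysteine-rich domain like that of the receptors, so that it can bind Wnt ligands outside the cell and keep them from their receptors. In many tumours the gene is known to be silenced along with methylation of its promoter, whereas methylation of CpGs far from a start site has no fixed relation to expression. RNA was not measured in the libraries described here.

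The cells were EBTr, an established bovine cell line of embryonic tracheal fibroblasts, and methylation was read by reduced representation bisulfite sequencing (RRBS), in which enzyme-cut, CpG-rich fragments are sequenced after unmethylated cytosines have been converted. The Low medium held glucose at 1 g/L and the High medium held it at 4.5 g/L. At each glucose level they received basal amounts of epigenetic modifiers (EM; folate, choline, vitamin B12 and methionine; Control) or those amounts raised 2.5 times (×2.5) or 5 times (×5), which gave 6 treatments with 3 libraries each. Methionine was held at a lower multiple than the other modifiers in supplemented media by the stated methods, although the labels name a single multiple for all. All 6 treatments shared the same line and the same serum-containing medium. Since nothing states that the 3 tubes of a treatment were grown apart, p-values measure only the spread between these samples, which may be technical.

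Each value is a log2 ratio of methylated to unmethylated reads, and levels are given as the percentage that this ratio stands for, with the offset of the deposited values still in it. Depth is not in the data, so no interval for a single value can be given. Over all 31500 CpGs the mean level per library lay between 67.2% and 70.0%. A cytosine was called in a comparison when its unadjusted p was under 0.01 in limma, and the p adjusted by the Benjamini-Hochberg method over all 31500 CpGs is given beside it.

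The SFRP1 cytosines were mostly methylated. Their mean level over the 18 libraries averaged 72.4%, with a median of 78.3% and a range from 15.1% to 93.2%, beside a mean of 68.9% and a median of 75.5% over all CpGs. Of the 130, 57 had a mean level of 80% or more, 56 lay from 50% to 80%, and 17 were under 50%. Within a treatment the libraries spread by a median SD of 0.46 on the log2 scale at the SFRP1 cytosines and 0.43 over all CpGs. The members formed 13 clusters, separated by gaps of at least 100 bp. By their mean, the seventh cluster was the most methylated, at 85.3% over 3 cytosines, and the fifth the least, at 35.2% over 2 cytosines. Levels also differed widely within a cluster: in the first, 38 bp long, the 3 cytosines had mean levels of 93.2%, 57.0% and 17.1%.

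**Figure D1:**
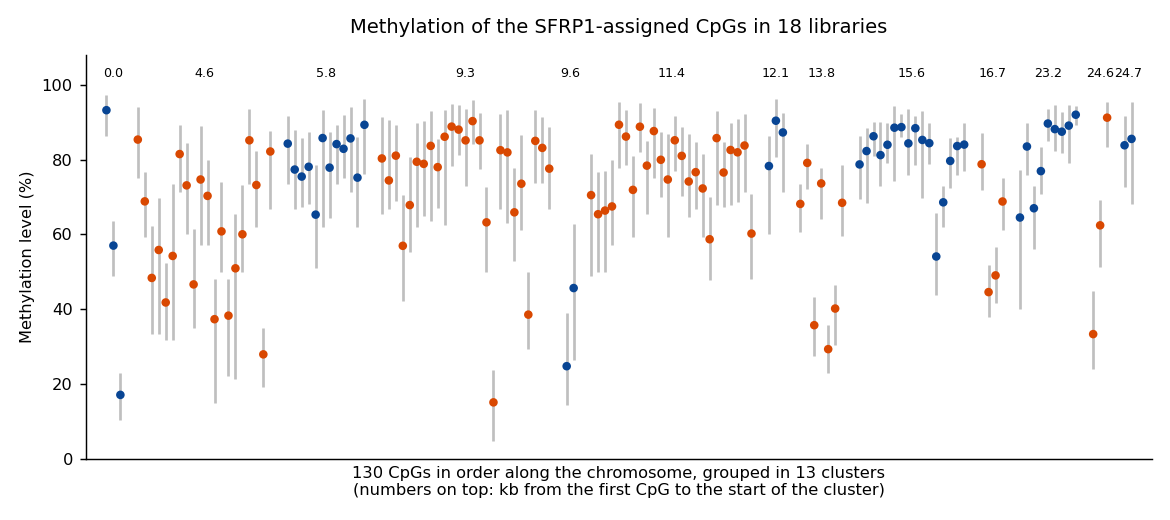
Mean methylation level (%) of each of the 130 SFRP1 cytosines over 18 libraries (points) with the lowest and highest library (grey bars), in order along the chromosome. Colours alternate between the 13 clusters, and the numbers on top give the distance in kb from the first cytosine to the start of each cluster. The means run from 15.1% to 93.2%.

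Averaged over the 130 cytosines, the level moved by little between treatments and in opposite order at the 2 glucose levels. In Low cells the mean was 71.2% ± 2.30 (SD, n = 3) in Control, 72.8% ± 0.708 at ×2.5 and 73.7% ± 0.752 at ×5. In High cells it was 73.3% ± 0.982 in Control, 72.3% ± 1.34 at ×2.5 and 71.4% ± 1.09 at ×5. The libraries of High ×5 lay from 70.1% to 72.1% and did not overlap those of Low ×5, from 73.1% to 74.5%, or those of High Control, from 72.2% to 74.0%. The means over all 31500 CpGs did not overlap either, at 67.6% to 68.7% in High ×5, 69.1% to 70.0% in Low ×5 and 68.8% to 69.6% in High Control. The Low Control libraries spread widest, from 69.4% to 73.8%, and overlapped every other treatment. The mean over all 31500 CpGs moved in the same order, from 68.2% ± 1.25 in Low Control to 69.5% ± 0.487 in Low ×5 and from 69.2% ± 0.386 in High Control to 68.3% ± 0.619 in High ×5, so the SFRP1 means are given here as a description, without a test.

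**Figure D2:**
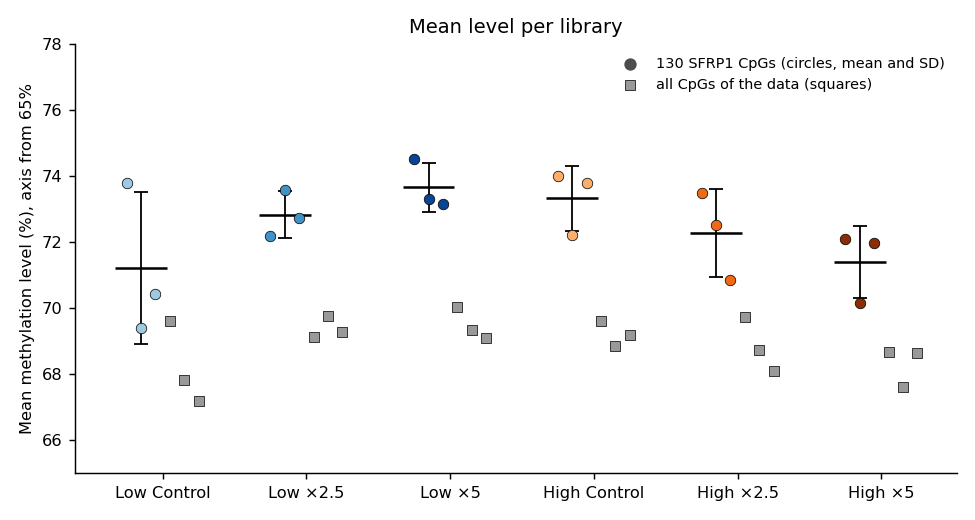
Mean methylation level (%, axis starting at 65%) of the 130 SFRP1 cytosines in each library (circles, with the mean and SD of the 3 libraries of a treatment) and of all 31500 CpGs in the same libraries (grey squares). SFRP1 means lie from 69.4% to 74.5% and all-CpG means from 67.2% to 70.0%.

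On the log2 scale the region mean of High ×5 was 0.22 below that of Low ×5 and the SD between replicates was 0.090. When each library was centred on its own median, that difference was -0.0898, and after quantile normalization it was -0.0867.

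The study compared supplement levels within each glucose level, glucose levels at each supplement level, and High ×5 with Low Control. Over these 10 contrasts, 32 of the SFRP1 tests were called, at 16 of the 130 cytosines. That is 2.46% of the tests on SFRP1 cytosines, beside 1.49% of the tests on all CpGs. Since calls on the same libraries set the bounds, nothing is read from the members' counts of calls being above the background, here and below. Of the 16 cytosines, 8 were called in 1 contrast, 5 in 2 and 3 in at least 3. The same counts per cytosine over all CpGs are not given here. The 10 contrasts share 6 treatment means, so several calls at 1 cytosine are not separate evidence.

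With supplement in High cells, 5 SFRP1 cytosines were called at ×5 against Control, 4 of them lower at ×5, where the background over all CpGs was 1.37%. At ×2.5 against Control 3 were called, all lower at ×2.5, against a background of 1.02%. Between ×5 and ×2.5 in High cells 4 were called, 3 of them lower at ×5, against a background of 1.47%. In Low cells 2 were called at ×5 against Control, both higher at ×5 (background 2.4%), 1 at ×2.5 against Control, lower at ×2.5 (background 2%), and 1 between ×5 and ×2.5, higher at ×5 (background 0.371%). The shares of SFRP1 cytosines called in Low cells were 1.54%, 0.769% and 0.769% in turn, near or below the background in the first pair of contrasts. Over all CpGs, called or not, the difference was negative at 59.7%, 53.2% and 56.1% in the 3 High contrasts in turn. In the 3 Low contrasts it was negative at 38.0%, 38.9% and 49.3%. Nothing is read from the directions of the calls.

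Between the glucose levels, 2 cytosines were called in Control medium, both higher in High (background 1.92%), 3 at ×2.5, of which 2 were lower in High (background 1.01%), and 3 at ×5, all lower in High (background 1.61%). The contrast of High ×5 with Low Control gave the most calls, 8, with 5 higher and 3 lower in High ×5 (background 1.75%). The effect of ×5 against Control differed between High and Low cells at 5 cytosines, all with the more negative effect in High cells (background 2.79%), and that of ×2.5 at 4 (background 1.85%). Glucose averaged over supplement levels gave 3 calls (background 1.08%), and the F-test over the 6 treatments 3 (background 1.44%). Over all CpGs, High minus Low was negative at 40.7% in Control medium, 55.4% at ×2.5 and 62.4% at ×5. High ×5 minus Low Control was negative at 49.8%. The difference of the supplement effect was negative at 64.5% for ×5 and 60.3% for ×2.5. Nothing is read from the directions of these calls either.

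At a Benjamini-Hochberg adjusted p under 0.05 in limma, 1 SFRP1 cytosine passed. It was the 1 of 31500 CpGs (0.00317%) that passed in High ×5 against Low ×5, and 1 of the 3 (0.00952%) that passed for the difference of the ×5 effect between glucose levels. At that threshold 0 of the 31500 CpGs passed in the other 12 tests by limma, in which 754 to 2700 CpGs had an unadjusted p under 0.05. The adjustment was made within each test and does not cover the 14 tests together. The cytosine, at position 35834463, opens the second cluster.

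At position 35834463 the Low Control libraries had levels of 87.5%, 85.7% and 83.3%. The Low ×2.5 libraries had 86.5%, 83.6% and 83.7%, and the Low ×5 libraries 94.1%, 92.3% and 92.2%. The Low ×5 libraries were thus the highest of all 18. The High Control libraries had 90.4%, 89.5% and 87.5%, the High ×2.5 libraries 83.7%, 83.8% and 81.8%, and the High ×5 libraries 75%, 80% and 75.7%. The High ×5 libraries were the lowest of all 18. Supplement at ×5 went with a higher level in Low cells and a lower one in High cells.

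**Figure D3:**
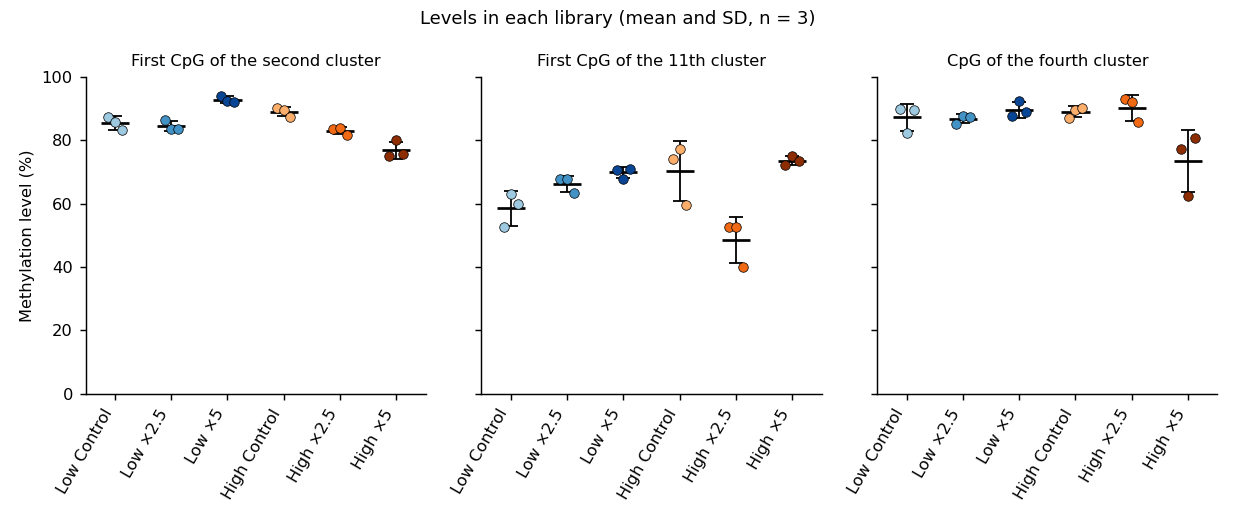
Methylation level (%) in each library (points) at 3 SFRP1 cytosines, with the mean and SD of the 3 libraries of a treatment. From left to right the cytosines are 35834463, 35853033 and 35839147, where High ×5 averaged 76.9%, 73.6% and 73.5%.

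In means, the order was Low ×5 at 92.8% ± 1.06, High Control at 89.1% ± 1.47, Low Control at 85.5% ± 2.09, Low ×2.5 at 84.6% ± 1.64, High ×2.5 at 83.1% ± 1.10 and High ×5 at 76.9% ± 2.71 (SD, n = 3). High ×5 was 15.9 points below Low ×5, or -1.97 on the log2 scale (SE 0.21, limma, adjusted p = 0.00193). The effect of ×5 in High cells minus that in Low cells was -19.6 points, or -2.44 on the log2 scale (SE 0.30, limma, adjusted p = 0.0114). Within High cells, ×5 was below Control by -1.30 (SE 0.21, limma, adjusted p = 0.172). Within Low cells, ×5 was above Control by 1.14 (SE 0.21, limma, adjusted p = 0.245). Neighbours in the middle of the order did not differ beyond their spread: Low ×2.5 was -0.11 from Low Control (SE 0.21, limma, adjusted p = 0.934), and High ×2.5 was -0.16 from Low ×2.5 (SE 0.21, limma, adjusted p = 0.9995).

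The libraries of 1 treatment lay close together at this cytosine. Their SD within a treatment was 0.21 on the log2 scale, and a smaller one was found at 9.88% of all CpGs and 2.31% of the SFRP1 cytosines. The cytosine on the opposite strand of this CpG is not among the CpGs analysed here, so the pattern could not be read a second time on that strand. Leaving out 1 library at a time kept High ×5 against Low ×5 past the threshold, with adjusted p from 0.00444 to 0.0293 in limma. The difference of the ×5 effect had adjusted p = 0.061 without High ×5 replicate 1, 0.0652 without High ×5 replicate 3 and 0.0647 without Low ×5 replicate 1 in limma. Fitted on the 6 libraries of the contrast alone, High ×5 against Low ×5 had adjusted p = 0.443 in limma, at the same difference of -1.97.

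The other 19 cytosines of the second cluster, which spans 394 bp, showed smaller differences. The nearest, 6 bp away at position 35834469, averaged 64.5% ± 6.81 in Low Control, 72.4% ± 1.19 in Low ×5, 70.8% ± 8.92 in High Control and 66.6% ± 8.21 in High ×5. Its ×5 effect differed between glucose levels by -0.80 on the log2 scale (SE 0.48, limma, adjusted p = 0.623). Over the 19 cytosines this difference ran from -1.15 to 0.53 with a median of -0.44. It was negative at 16, and 0 of the 19 were called. High ×5 against Low ×5 had a median of -0.08 over the same 19. For the difference of the ×5 effect, 1 of the 19 had an unadjusted p under 0.05 in limma, the last cytosine of the cluster at position 35834856 (-1.15, adjusted p = 0.455). Between ×5 and Control, 3 of the 19 had such a p in Low cells and 1 in High cells. Between High ×5 and Low ×5, 0 of the 19 did. Of all 31500 CpGs, 3032 had an unadjusted p under 0.05 in limma for the difference of the ×5 effect. For ×5 against Control 2700 did in Low cells and 1957 in High cells, and 2108 did for High ×5 against Low ×5. Nothing is read from the counts among the 19.

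**Figure D4:**
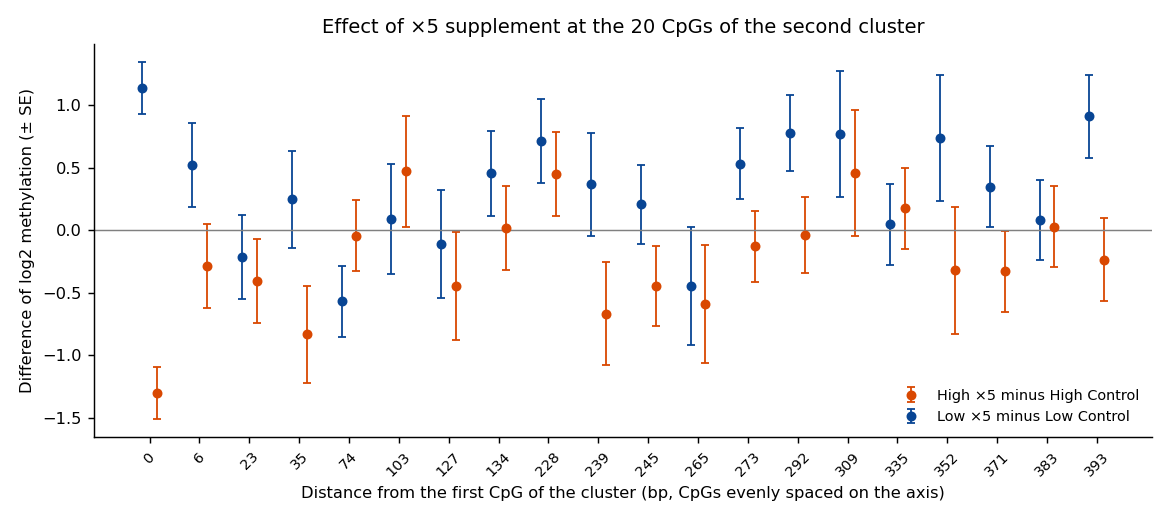
Difference of log2 methylation (± SE) between ×5 and Control in High cells (orange) and Low cells (blue) at the 20 cytosines of the second cluster, by distance in bp from its first cytosine. The first cytosine has 1.14 in Low and -1.30 in High cells, and the error bars of High and Low cells overlap at many of the others.

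The 12 clusters of at least 3 CpGs were also tested on their mean log2 values, together with all 2663 such clusters of the data set. The second cluster was called for the difference of the ×5 effect, at -0.55 (SE 0.18, limma, adjusted p = 0.137), where the background was 6.53% of clusters. Its mean includes position 35834463, the member with the smallest p in that test, so this call is not a separate reading. The second cluster was also called for High Control against Low Control, at 0.37 (SE 0.13, limma, adjusted p = 0.32), with a background of 2.89%. With libraries centred on their median or after quantile normalization, 0 clusters were called. With only the libraries compared in the fit, 0 were called in the 10 contrasts, and the difference of the ×5 effect was not fitted in that way. All 12 clusters were lower in High ×5 than in Low ×5 by sign, beside 77.2% of the 2663 clusters. The last of the 12 holds 12 CpGs, of which 2 are members. At p under 0.01, 0 of the 12 were called, against a background of 2.44%, and 2 had p under 0.05, against 10.4%. Those 2 were the fourth cluster (-0.33, SE 0.14, adjusted p = 0.455) and the eighth (-0.24, SE 0.11, adjusted p = 0.46). The third cluster, at 80.1%, was the nearest to no difference in that contrast (-0.002, SE 0.19, limma, adjusted p = 0.997).

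The cytosine with the smallest p between High ×5 and High ×2.5 opens the 11th cluster, at position 35853033. Its levels were 52.5%, 63.2% and 60% in Low Control, 67.7%, 67.8% and 63.3% in Low ×2.5, and 70.8%, 67.9% and 71.1% in Low ×5. In High cells they were 74.2%, 77.1% and 59.5% in Control, 52.6%, 52.6% and 40.0% at ×2.5, and 72.2%, 75% and 73.5% at ×5. In High cells the 3 ×2.5 libraries thus lay below all libraries of Control and ×5, while High Control and Low ×5 overlapped.

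In means, High ×2.5 had 48.4% ± 7.29, against 70.3% ± 9.44 in High Control and 73.6% ± 1.39 in High ×5 (SD, n = 3). High ×5 was 25.2 points above High ×2.5, or 1.57 on the log2 scale (SE 0.29, limma, adjusted p = 0.546). High ×2.5 was below High Control by -1.37 (SE 0.29, limma, adjusted p = 0.693) and below Low ×2.5 by -1.07 (SE 0.29, limma, adjusted p = 0.945). The ×2.5 effect in High cells minus that in Low cells was -29.6 points (-1.85 on the log2 scale, SE 0.41, limma, adjusted p = 0.423). The next cytosine of the cluster, at position 35853052, averaged 83.2% ± 1.64 in High Control, 81.8% ± 5.12 in High ×2.5 and 83.5% ± 1.59 in High ×5, and these ranges overlapped.

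The third cytosine called in at least 3 contrasts was at position 35839147 in the fourth cluster. It averaged 73.5% ± 9.73 in High ×5, where the libraries lay at 77.3%, 62.5% and 80.9%, and from 86.8% to 90.3% in the other 5 treatments (n = 3). High ×5 was below High Control by -1.50 (SE 0.37, limma, adjusted p = 0.491), below High ×2.5 by -1.77 (SE 0.37, limma, adjusted p = 0.546), below Low ×5 by -1.61 (SE 0.37, limma, adjusted p = 0.448) and below Low Control by -1.30 (SE 0.37, limma, adjusted p = 0.493). The cytosine on the opposite strand of the same CpG, at position 35839148, averaged 89.2% ± 2.50 in High ×5 and 90.6% ± 4.43 in High Control, and was not called in these contrasts. Without replicate 2 of every treatment, which leaves out the 62.5% library, the difference from Low ×5 was -0.99 and was no longer called, and the difference from High Control was -1.07 and was no longer called. Without High ×5 replicate 2 alone, the difference from Low ×5 was -1.22 and was still called, and that from Low Control was -0.90 and was not.

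At position 35845453 in the ninth cluster, levels averaged 81.6% ± 6.73 in Low Control, 91.2% ± 3.22 in High Control and 79.5% ± 3.25 in High ×5 (SD, n = 3). High Control was above Low Control by 1.20 (SE 0.37, limma, adjusted p = 0.503). Without replicate 3 of every treatment that difference was 0.71, and it was no longer called under 7 of 16 alternatives. On the opposite strand, at position 35845454, High Control was above Low Control by 0.11 (SE 0.28, limma, adjusted p = 0.957). At position 35845453, High ×5 was below High Control by -1.46 (SE 0.37, limma, adjusted p = 0.491). The first cytosine of that cluster, at position 35845400, averaged 83.1% ± 2.80 in Low Control, 72.6% ± 2.77 in Low ×2.5 and 81.0% ± 1.96 in Low ×5. Low ×2.5 was below Low Control there by -0.90 (SE 0.25, limma, adjusted p = 0.441).

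RRBS reads the cytosines of both strands. When DNA is replicated, methylation at a CpG is copied from the old strand to the new one. The cytosines of a pair can therefore be set side by side. Here and above, positions 1 bp apart were taken as such a pair, without a strand or sequence to check it by. Read in this way, both strands were measured at 16 SFRP1 CpGs, in the fourth and ninth clusters, and at 6516 CpGs in all. The mean levels of the strands differed by a median of 3.97 points in the SFRP1 pairs and 1.83 points over all pairs. In the 10 contrasts, 11 of the 160 tests on SFRP1 pairs called a cytosine on 1 strand and 0 called both strands. Over all 6516 pairs in the same 10 contrasts, 1637 tests called at least 1 strand, and 19 of these (1.16%) called both. Beside that share, 0 among 11 tests says nothing about the SFRP1 pairs, and nothing is read from the 11 either. The differences had the same sign on both strands in 56.9% of tests on SFRP1 pairs and 54.0% of those on all pairs.

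The widest pair was at positions 35839192 and 35839193, with mean levels of 63.2% and 15.1%. The first was the higher in all 18 libraries, and 31 of the 6516 pairs (0.476%) differed by more. Neither the sequence at this CpG nor a variant of the cell line there was analysed. A second pair, at positions 35845477 and 35845478, had 54.1% and 68.6%, with the first lower in all 18 libraries.

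**Figure D5:**
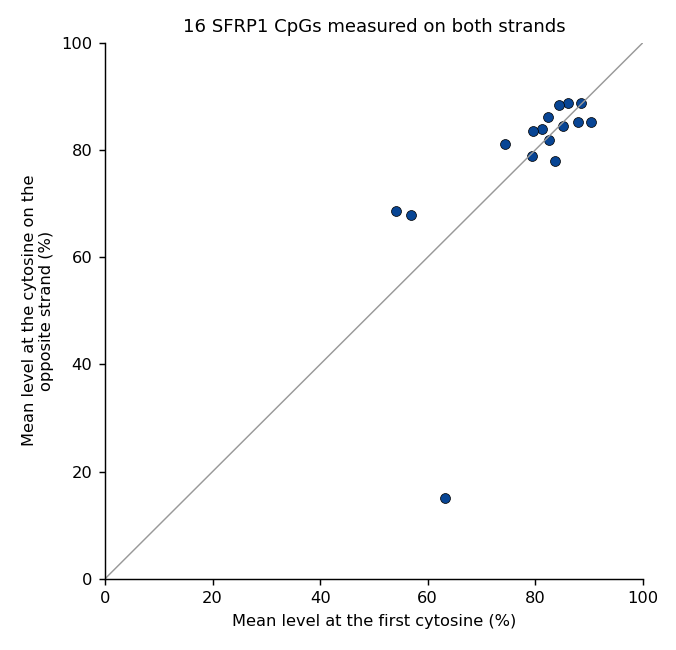
Mean methylation level (%) over 18 libraries at the first cytosine (horizontal) and at the cytosine on the opposite strand (vertical) of the 16 SFRP1 CpGs measured on both strands, with the line of equal levels. The point farthest from the line has 63.2% on the first strand and 15.1% on the other.

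Differences on the log2 scale were larger at more methylated CpGs, at SFRP1 and over all CpGs. The difference of the ×5 effect between High and Low cells had a median of -0.68 at the 57 SFRP1 cytosines of 80% or more, beside -0.39 at all CpGs of that level. It was -0.31 at the 56 members from 50% to 80%, beside -0.13, and -0.12 at the 17 under 50%, beside 0.08. Over all members it was negative at 98 of 130 (75.4%), with a median of -0.36, and over all CpGs at 64.5%, with a median of -0.18. Neighbouring cytosines share reads and all of them share the 18 libraries, so these counts describe the libraries and carry no test.

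Other genes of Wnt signalling were represented by CpGs bounded in the same way, by cytosines that the study listed as differentially methylated, so their shares of calls are a description. Those CpGs too were assigned by nearest start site, without a limit on distance. ATP6AP2, a part of the receptor complex, had 16 calls over the 10 contrasts at 51 CpGs (3.14% of tests), and RSPO3, a secreted activator of the pathway, had 0 at its 1 CpG. The transcriptional corepressors TLE1 and TLE4 had 7 calls at 43 CpGs (1.63%) and 126 calls at 688 CpGs (1.83%). PLCB1, a phospholipase, had 16 at 58 CpGs (2.76%), the kinase MAPK8 had 15 at 95 CpGs (1.58%), and the small GTPase RHOU had 8 at 114 CpGs (0.702%). TBXT, a transcription factor gene that responds to Wnt signals, had 21 at 62 CpGs (3.39%). These shares bracketed the 2.46% of SFRP1, beside 1.49% of the tests on all CpGs. The median difference of the ×5 effect was negative at all 8 genes, from -0.45 at RSPO3 (1 CpG) to -0.05 at RHOU, with -0.41 at MAPK8. Over all CpGs the median was -0.18 and 64.5% were negative, so the sign is not particular to these genes.

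The library means of the SFRP1 cytosines, each taken relative to the mean of all CpGs in its library, were compared with those of 228 other genes with at least 10 CpGs. The most alike were DMAC1 on chromosome 8 (Pearson's r = 0.70 over 18 libraries, 289 CpGs), LRRC7 on chromosome 3 (r = 0.70, 22 CpGs) and ALG6 on chromosome 3 (r = 0.65, 960 CpGs). Stronger correlations were found in the opposite direction, at TMEM168 on chromosome 4 (r = -0.80, 127 CpGs) and RHOU on chromosome 28 (r = -0.77, 114 CpGs), both named after their values were seen. The 18 points share their libraries and treatments, and the values are a description.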

How the data were processed

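The authors sequenced 18 RRBS libraries of EBTr cells, trimmed reads with Cutadapt and a script for diversity adapters, aligned them to bosTau8 with Bismark 0.22.3 in a Nextflow pipeline, checked them with FastQC 0.11.8 and MultiQC 1.9, and filtered CpGs on coverage. The deposited values are log2 ratios of methylated to unmethylated reads at 31500 CpGs; their offset and depth are not given in the sources used here. No count test was possible, so limma 3.58.1 in R 4.3.3 was fitted to all deposited log2 values, with 1 mean per treatment and all 18 libraries. Calls were made at unadjusted p under 0.01, two-sided, and Benjamini-Hochberg adjustment ran over all 31500 CpGs, separately in each of the 14 tests. CpGs less than 100 bp apart were joined into clusters, and clusters of at least 3 CpGs were tested on their mean. Positions 1 bp apart were read as both strands of 1 CpG. CpGs were assigned to genes by the names in the study's supplementary tables, a CpG between listed CpGs of 1 gene taking that gene. An exact permutation test of 3 libraries against 3 cannot go below 0.1, so none was used. In simulated data with 200 of 31500 CpGs changed in High ×5 against Low ×5, 59% were called for a log2 change of 1 and 95.5% for a change of 2, and 14% and 74% passed adjustment. Of the unchanged CpGs, 1.03% and 1.11% were called. The simulated CpGs varied independently, without shifts shared by a library or by neighbours, so these rates may not hold for the real libraries. Same-numbered libraries deviated together by correlations from -0.106 to 0.115, with 1 of 45 pairs over 0.1, so numbers were not taken as pairs.

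Cytosines given with values in every library are those with an adjusted p under 0.05 in any test and that with the smallest p in High ×5 against High ×2.5. The cytosine with the smallest p in each other test, and those called in at least 3 contrasts, have treatment means; others beside them were named after their values were seen. The members, the lists and these tests were chosen with earlier results of these data known.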

Additional observations from a re-analysis of the deposited data

Results flagged for a closer look

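The effect of ×5 supplement at position 35834463 differed between the glucose levels, by -2.44 on the log2 scale (SE 0.30, limma interaction, adjusted p = 0.0114). All 3 High ×5 libraries lay below the High Control libraries and all 3 Low ×5 libraries above the Low Control libraries. With 3 libraries per treatment, no test of a single outlying library within a treatment was run.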

How the results depend on the processing

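The differences of the 5 named cytosines kept their direction under every alternative tried: of 404 values for 23 differences, 338 also kept their side of the threshold, 66 did not and 0 reversed. The threshold was an adjusted p under 0.05 for High ×5 against Low ×5 and the ×5 interaction at position 35834463. For the others it was an unadjusted p under 0.01. All were chosen for a p under 0.01 in these libraries, so a kept direction was likely in advance. At position 35834463, High ×5 against Low ×5 had adjusted p = 0.443 when only its 6 libraries were fitted (-1.97), and values from -2.16 to -1.75 when libraries or replicate numbers were left out. With 1 replicate number left out of all treatments, its adjusted p was 0.772, 0.864 and 0.29. The difference of the ×5 effect there was -2.05 after quantile normalization (adjusted p = 0.0735) and -0.196 on levels as fractions (adjusted p = 0.0583), and ran from -2.61 to -2.25 with libraries left out. Over all its alternatives, adjusted p ran from 0.00149 to 0.864 for the former and 0.00882 to 0.685 for the latter. Some of these fits held fewer libraries, while quantile normalization and fractions left none out. The cause of these changes was not tested.

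An adjusted p under 0.05 left 1 SFRP1 cytosine in High ×5 against Low ×5 and 1 for the ×5 interaction, and 0 in the other tests. With only the libraries compared in the fit, calls moved to 4 in Low ×5 against Low ×2.5, 5 in High ×5 against Low ×5, 0 in High Control against Low Control and 4 in High ×5 against Low Control. Centring libraries on their median gave 2 in High ×5 against High ×2.5, 1 in Low ×5 against Low Control and 2 for the ×5 interaction; quantile normalization gave 1 and 2 for the last pair, and fractions gave 3 for the ×5 interaction and 2 in Low ×5 against Low ×2.5. With the replicate block, which pairs libraries by number only, 5 were called in High Control against Low Control and 5 by the F-test, and the block changed no other call count by over 1.5 times.

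Cluster calls, 2 in all, became 0 with centring and with quantile normalization, and 1 with gaps under 50 bp. With only the libraries compared, 0 were called, but the ×5 interaction was not fitted there, so that call could not be kept. The region mean of High ×5 minus Low ×5 was -0.0898 on the log2 scale with centring and -0.0867 with quantile normalization.

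With replicate numbers, or single libraries (chosen after seeing the data), left out, calls ranged from 2 to 6 for High ×5 against High Control, 2 to 5 for High ×2.5 against High Control, 2 to 5 for High ×5 against High ×2.5, 1 to 6 for Low ×5 against Low Control, 0 to 5 for Low ×2.5 against Low Control, 1 to 2 for Low ×5 against Low ×2.5, 1 to 8 for High ×5 against Low ×5, 1 to 5 for High ×2.5 against Low ×2.5, 0 to 6 for High Control against Low Control, 4 to 10 for High ×5 against Low Control, 2 to 11 for the ×5 interaction, 2 to 6 for the ×2.5 interaction, 2 to 4 for the glucose effect, 1 to 6 for the F-test and 0 to 5 for clusters. Without Low Control replicate 1, calls reached the upper end for Low ×5, Low ×2.5 and High Control against Low Control, for both interactions, for the F-test and for clusters. With 1 replicate number left out, the region mean on the log2 scale ranged from 0.0143 to 0.136 for Low ×5 minus Low ×2.5, 0.00444 to 0.282 for Low ×2.5 minus Low Control, -0.168 to -0.0113 for High ×2.5 minus High Control and -0.201 to -0.0269 for High ×5 minus High ×2.5. It changed sign for High ×2.5 minus Low ×2.5 (-0.108 to 0.025) and High ×5 minus Low Control (-0.0845 to 0.0897). Depth is unknown, so how far shallow reads limit a single value could not be given.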
